A study of Mus musculus with 18 samples.

Results

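The genes of 10 histone acetyltransferases were followed through the RNA-seq data of mouse embryonic stem cells (ESCs) in which endogenous Hdac1 and Hdac2 can be deleted. The members were Ep300, Crebbp, Kat2a, Kat2b, Kat5, Kat6a, Kat6b, Kat7, Kat8 and Hat1. They were taken by symbol from the 53672 genes that each library listed, with earlier results of these data known. All 10 of 10 were among the 18791 genes that passed the filter on low counts. The E14TG2a line with floxed Hdac1 and Hdac2 alleles carried a stable piggyBac transgene for Flag-tagged HDAC1, either HDAC1-WT, HDAC1–E63R or HDAC1–Y48E. Each of these 3 rescue lines was sequenced untreated and after 1 µM 4-hydroxytamoxifen (OHT), which removes both endogenous genes, with 3 libraries in each of 6 groups and 18 libraries in all. Untreated cells of every line therefore still had endogenous HDAC1 and HDAC2 beside the transgene product, and OHT was given to leave only the transgene product. The labels give 5 days of OHT, while the study's methods give a shorter exposure followed by culture without it. Whether each line is a clone or a pool is not given in the sources used here.

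Histone acetyltransferases transfer the acetyl group of acetyl-CoA to lysines of the histone tails, and histone deacetylases such as HDAC1 and HDAC2 take it off again. Ep300 and Crebbp encode the closely related coactivators p300 and CBP. Kat2a and Kat2b encode GCN5 and PCAF, the alternative catalytic subunits of the SAGA and ATAC coactivator complexes. Kat5 (TIP60), Kat6a (MOZ), Kat6b (MORF), Kat7 (HBO1) and Kat8 (MOF) form the MYST family, and each works inside complexes with scaffold and reader subunits. Hat1 acetylates newly made histone H4 before it is put into chromatin. In ESCs several of these enzymes act at genes bound by the pluripotency factors, and the lysines they acetylate are substrates of HDAC1 complexes.

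Totals of 9019615 to 11454638 counts on genes were available per library, so that a floor of 3 counts lay at 0.248 to 0.343 CPM (counts scaled to the size of the library), and every member was far above it in all 18 libraries. The defining ESC markers were present in every group. Their summed level over 8 genes was 7830 to 8020 CPM in the untreated HDAC1-WT cells and 8250 to 9100 after OHT. It was 5350 to 8670 CPM in the untreated and 4670 to 5000 in the OHT-treated E63R line, and 5980 to 6070 in the untreated and 2660 to 2800 in the OHT-treated Y48E line. In the Y48E line 7 of 8 ESC markers passed the test as lower after OHT, against 14.7% of all genes. In the E63R line 3 passed as lower and 1 as higher, against 6.82% and 7.49% of all genes. The summed keratinocyte markers went from 4.62 to 10.2 CPM in the untreated Y48E line to 59.8 to 63.8 after OHT, and in the E63R line from 5.49 to 8.02 to 38.2 to 43.2. Of the 7 tested, 4 passed as higher and 1 as lower in the Y48E line, and 3 as higher and 0 as lower in the E63R line. In the untreated groups of both mutant lines 5 of the 8 keratinocyte markers, Krt5, Krt14, Trp63, Krt1 and Dsg3, were at or under the floor. Summed trophoblast markers went from 109 to 143 CPM to 207 to 219 in the E63R line and from 120 to 140 to 144 to 156 in the Y48E line. Primitive endoderm markers moved from 33.3 to 71.8 CPM to 74.9 to 88.6 in the E63R line and lay at 109 to 114 untreated and 98.4 to 111 after OHT in the Y48E line. In the Y48E line 1 of them passed as higher and 1 as lower. Summed fibroblast markers went from 316 to 1040 CPM to 454 to 496 in the E63R line and from 910 to 1050 to 376 to 393 in the Y48E line, but most of this sum was Fn1, at means of 936 and 294 CPM in the Y48E line. Of the 4 fibroblast markers tested, Col1a1 and Thy1 rose in both mutant lines, by 2.49 and 1.55 on the log2 scale in the E63R line and by 3.07 and 1.42 in the Y48E line, and Dcn and Lum were at or under the floor. The ranges of the untreated E63R cells include a library that stands apart from the others, described in the next paragraph. Medians of these 3 libraries were 5860 CPM for the ESC, 58.4 for the primitive endoderm and 966 for the fibroblast markers. The part of these shifts in cell state in the results on the acetyltransferases was not tested. In bulk RNA, fewer cells that express a gene and less of its RNA per cell cannot be told apart. The totals of Hdac1 and Hdac2 did not settle whether deletion was complete. Reads of the Hdac1 transgene may be counted with the endogenous gene. For Hdac2, which had no transgene, a total per gene does not show whether the floxed part was lost. Between OHT-treated and untreated cells Hdac1 differed by -0.24, 0.22 and 0.14 on the log2 scale in the WT, E63R and Y48E lines, and Hdac2 by -0.66, -0.21 and -0.07, none with an adjusted p under 0.01 in edgeR's quasi-likelihood test. The lines themselves differed in Hdac1 RNA. It was at 201 to 210 CPM in the untreated and 169 to 179 in the OHT-treated WT cells. All libraries of the mutant lines lay between 94.9 and 131 CPM. The part of this difference in the results on the acetyltransferases was not tested.

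Replicate 3 of the untreated E63R cells stood apart from the other 17 libraries. The median log2 CPM of genes with over 6169 bases of exon exceeded that of genes with under 2144 bases by 1.89 in this library and by 2.32 to 2.61 in the others. Its scaling factor was 0.814, against 0.955 for the next lowest. Most members followed the same trend with exon length. Ep300, Kat6a and Kat6b, with 14273, 9180 and 16826 bases of exon, were at 30.4%, 28.5% and 39.8% of the mean of replicates 1 and 2. Hat1, Kat8 and Kat5, with 2886, 2891 and 3509 bases, were at 176%, 133% and 122%, whereas Kat2a, with 3480 bases, was at 78.6%. All groups share 1 estimate of the spread per gene. Without this library the standard error of the change after OHT in the WT line, which does not use it, went from 0.24 to 0.08 for Ep300 and from 0.20 to 0.08 for Kat6b. Calls of the members, and counts of their partners, are therefore given from all 18 libraries and, as a repeat chosen after the data were seen, from the 17 libraries without it, in which 19503 genes passed the filter.

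**Figure D1:**
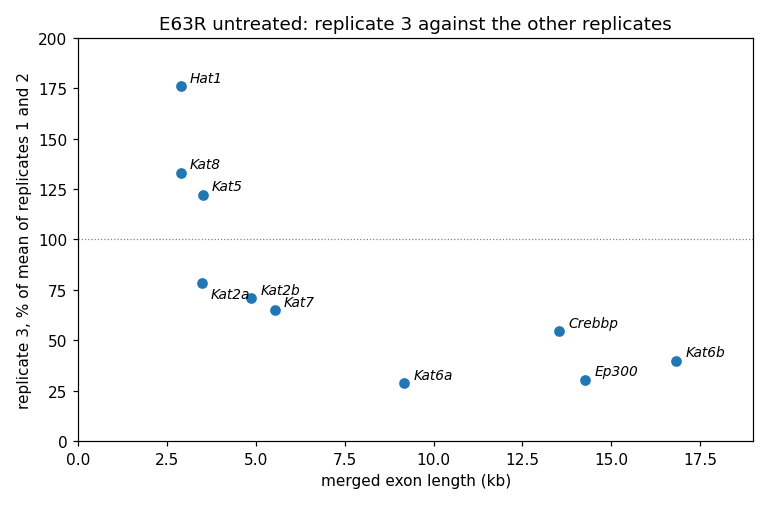
Level of each acetyltransferase gene in replicate 3 of the untreated E63R cells, as a percentage of the mean of replicates 1 and 2 (y axis), against its merged exon length in kilobases (x axis). Hat1, Kat8 and Kat5, with 2886 to 3509 bases of exon, lie above 100%, Kat2a with 3480 bases lies at 78.6%, and the 4 genes with 9180 bases or more lie between 28.5% and 54.3%.

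Promoter windows of RefSeq (build GRCm38.p6, the same coordinates as mm10), from 250 bases before to 50 bases after the annotated start, were found for 9 of the 10 members and not for Kat6a. Those of the 3 genes that were lower after OHT in the Y48E line are shown, to let the sequence composition of genes that moved together be compared. Capitals mark GGGCGG (the GC box bound by SP and KLF factors), CCAAT (the NF-Y motif), CCGGAAG (an ETS motif), CACGTG (the E-box) and TATAAA, each searched on both strands and with overlapping matches counted.
Kat2a, chr11:100712418-100712717, minus strand: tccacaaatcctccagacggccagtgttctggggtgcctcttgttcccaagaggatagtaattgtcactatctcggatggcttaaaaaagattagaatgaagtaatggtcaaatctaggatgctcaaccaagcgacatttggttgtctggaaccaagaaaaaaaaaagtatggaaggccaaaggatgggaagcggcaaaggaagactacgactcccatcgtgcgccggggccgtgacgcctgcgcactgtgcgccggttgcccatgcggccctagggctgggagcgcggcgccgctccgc
Kat6b, chr14:21499520-21499819, plus strand: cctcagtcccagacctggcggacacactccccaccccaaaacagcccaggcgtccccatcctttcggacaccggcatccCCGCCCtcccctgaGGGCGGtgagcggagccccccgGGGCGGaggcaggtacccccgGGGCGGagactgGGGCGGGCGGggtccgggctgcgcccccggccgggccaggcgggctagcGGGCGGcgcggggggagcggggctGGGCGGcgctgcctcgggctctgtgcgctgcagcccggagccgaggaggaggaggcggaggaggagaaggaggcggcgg
Kat7, chr11:95310197-95310496, minus strand: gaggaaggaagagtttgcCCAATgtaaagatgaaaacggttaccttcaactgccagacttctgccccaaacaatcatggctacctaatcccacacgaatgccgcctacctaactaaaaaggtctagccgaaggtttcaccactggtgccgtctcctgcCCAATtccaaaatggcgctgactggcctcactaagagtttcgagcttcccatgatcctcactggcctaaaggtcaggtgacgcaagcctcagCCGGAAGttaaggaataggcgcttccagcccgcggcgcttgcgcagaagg
The Kat6b window held 8 matches of GGGCGG, a pair of them overlapping, and had 78.3% G or C with 32 CpG dinucleotides. The Kat7 window held 2 matches of CCAAT and 1 of CCGGAAG, with 53% G or C and 14 CpG. No motif matched in the Kat2a window, which had 54.3% G or C and 19 CpG. Over 32851 windows of this length, GGGCGG was held by 35.7%, CCAAT by 37.4%, CCGGAAG by 8.86%, CACGTG by 7.15% and TATAAA by 13.6%, and the median number of CpG was 7. None of the 5 motifs was shared by the 3 windows. The Kat6b window lies inside the longer gene model of the annotation, which runs from chr14:21481434-21672478.

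Levels were compared between genes per kilobase of annotated exon (RPKM), to allow for the different lengths of the genes. The lengths of the transcripts in use were not measured. Hat1 had the highest level in every group, with means from 119 RPKM in the OHT-treated WT cells to 160 in the OHT-treated Y48E cells once the library that stands apart was left out. Kat2a and Kat7 came next, between 20.4 and 43.4 RPKM, and their libraries overlapped in 4 of the 6 groups. Crebbp was the lowest in all groups, at 1.88 to 2.67 RPKM. Kat5, Ep300, Kat8, Kat6a, Kat6b and Kat2b lay between 4.74 and 14.1 RPKM, and most neighbours in that order overlapped. The place of Kat6b in this order differed between lines. It was the fourth highest in both WT groups, at 12.7 and 14.1 RPKM, and the ninth in the OHT-treated Y48E cells, at 4.74 RPKM, below all libraries of Kat2b at 7.34 RPKM.

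**Figure D2:**
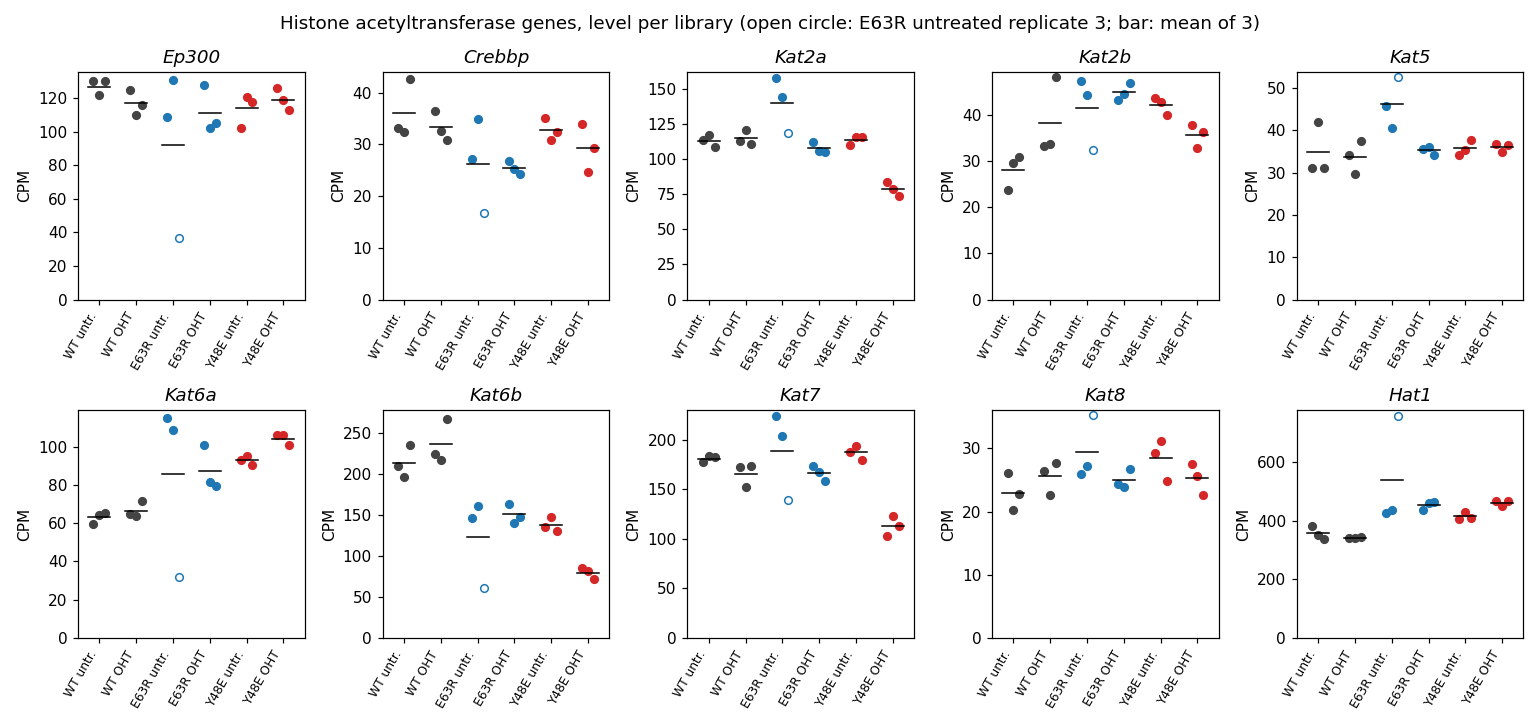
CPM of the 10 acetyltransferase genes in each of the 18 libraries (y axes from 0), by rescue line and treatment, with the mean of 3 as a bar and replicate 3 of the untreated E63R cells as an open circle. Kat2a, Kat6b and Kat7 are lowest in the 3 OHT-treated Y48E libraries among the 17 filled circles, and Kat6a and Hat1 are lower in the WT line than in either mutant line.

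The number of acetyltransferase genes that changed after OHT was counted in each of the 3 lines. In the WT line 0 of 10 members passed edgeR's quasi-likelihood test at an adjusted p (Benjamini-Hochberg) under 0.01, where 0.0585% of all tested genes did. An unadjusted p under 0.05 was reached by 1 member, Kat2b, and DESeq2 called 0. In the E63R line 1 member passed, Kat2a, which was lower, against 14.3% of all genes called and 6.82% called lower. In the Y48E line 3 members passed, Kat2a, Kat6b and Kat7, all lower, against 30.9% of all genes called and 14.7% called lower. The share of members that changed in the Y48E line was thus close to that of all genes. No member changed beyond 2-fold after OHT in any line. Of all genes 0.0532%, 5.91% and 16.6% did so in the WT, E63R and Y48E lines. The median absolute log2 change in the Y48E line was 0.17 over the members and 0.56 over all genes. The tested genes include genes at far lower levels than any member, and genes of similar level were not compared. In the Y48E line the untreated and OHT-treated libraries of 6 members did not overlap, as for 59.4% of all genes. Without replicate 3 of the untreated E63R cells the calls were 0 of 10 in the WT line (1.39% of all genes), 3 in the E63R line (18.5%) and 3 in the Y48E line (41.1%). These 3 in the Y48E line were again Kat2a, Kat6b and Kat7, and in the E63R line Kat6a and Kat7 joined Kat2a as lower.

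**Figure D3:**
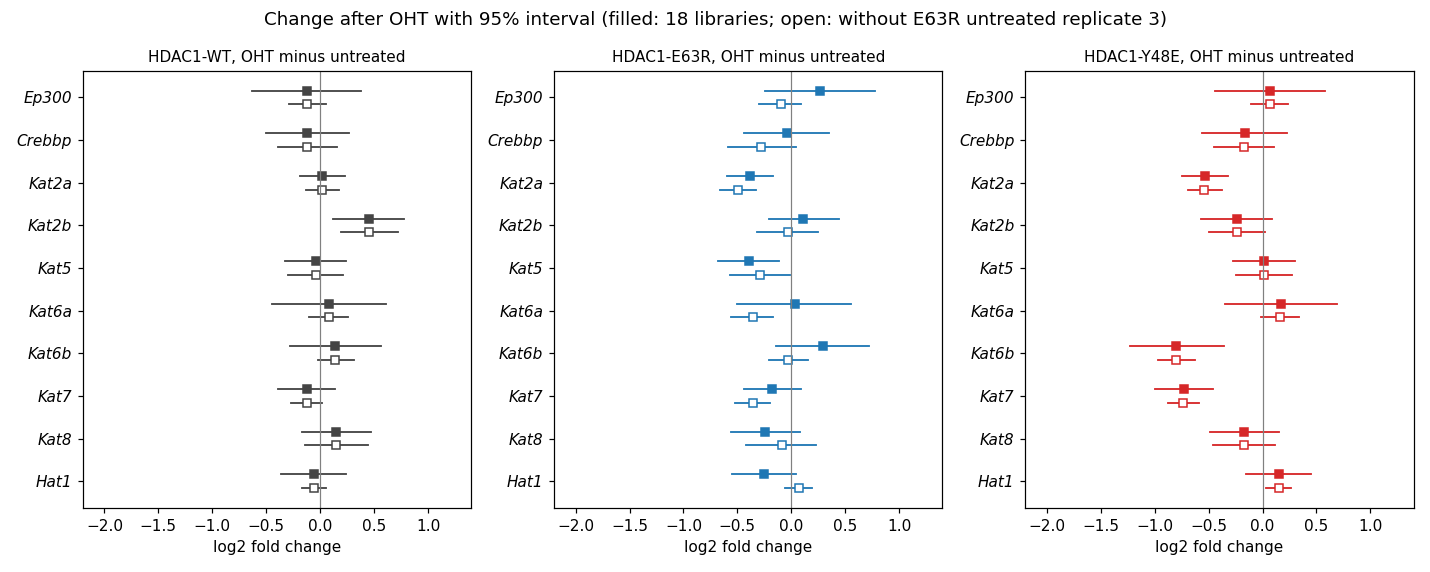
Log2 fold change of the 10 acetyltransferase genes between OHT-treated and untreated cells (x axis) with its 95% interval, in the WT, E63R and Y48E lines, from all 18 libraries (filled) and without replicate 3 of the untreated E63R cells (open). Kat2a, Kat6b and Kat7 lie at -0.53, -0.80 and -0.73 in the Y48E line, and the change of Kat6a in the E63R line moves from 0.03 to -0.36 when the library is left out.

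Kat6b and Kat6a, the catalytic subunits that alternate in the BRPF and ING5 complexes, stood in different proportions in the 3 lines. In the untreated WT cells Kat6b was at 210, 197 and 236 CPM and in the OHT-treated ones at 225, 217 and 268. In the E63R line it was at 146, 161 and, in the library that stands apart, 61.3 CPM untreated, and at 164, 140 and 148 after OHT. The Y48E line had 135, 148 and 131 CPM untreated and 85.7, 81.2 and 72.1 after OHT. Every WT library was thus above every library of the mutant lines, and the OHT-treated Y48E libraries were below all others except the E63R library that stands apart. Kat6b was 1.74-fold lower after OHT in the Y48E line, by a log2 change of -0.80 (SE 0.21, adjusted p = 0.00378 in edgeR's quasi-likelihood test). This call was lost without untreated replicate 1 or 2 or OHT-treated replicate 2 or 3 of the Y48E line, with adjusted p in edgeR from 0.0104 to 0.023, and without replicate 3 of the untreated E63R cells it was 6.7e-11. In the WT line the log2 difference after OHT was 0.14 (95% interval -0.28 to 0.56). The difference between these changes, Y48E minus WT, was -0.94 (SE 0.29) with an edgeR adjusted p of 0.0234, and of 9.39e-09 without the library that stands apart. Against E63R the Y48E change differed by -1.09 (adjusted p = 0.0318 in edgeR), and without that library by -0.77 (adjusted p = 1.49e-05 in edgeR).

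Kat6a went the other way between lines. Its levels were 59.4, 64.4 and 65.3 CPM in the untreated and 64.6, 63.7 and 71.6 in the OHT-treated WT cells. The untreated E63R cells had 115, 109 and, in the library that stands apart, 32 CPM, and the OHT-treated ones 101, 81.5 and 79.3. The Y48E line had 93.1, 95 and 90.6 CPM untreated and 106, 106 and 101 after OHT. Both mutant lines were above all WT libraries, other than the E63R library that stands apart. From all 18 libraries no difference of Kat6a passed the test. Without that library Kat6a was lower after OHT in the E63R line, by -0.36 (SE 0.10, adjusted p = 0.00315 in edgeR). The untreated Y48E and E63R cells exceeded the untreated WT cells by 0.56 and 0.84, with edgeR adjusted p of 1.89e-06 and 2.03e-09. In the Y48E line the 3 OHT-treated libraries were above the 3 untreated ones, but the log2 difference of 0.16 (95% interval -0.01 to 0.34) did not pass the test.

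Expressed per kilobase, Kat6b made up 64.9% ± 2.11 (SD, n = 3) of the Kat6a and Kat6b pair in the untreated WT cells and 65.9% ± 1.08 after OHT. The share was 44.8% ± 0.98 in the untreated Y48E cells and 29.4% ± 1.35 after OHT. In the E63R line it was 40.9% and 44.6% in replicates 1 and 2 and 51.1% in the library that stands apart, and 48.6% ± 1.74 after OHT. Per kilobase of annotated exon, the higher of the pair was therefore Kat6b in all 6 WT libraries and Kat6a in all 6 Y48E libraries. This order rests on the exon lengths used. In CPM the untreated Y48E cells had more Kat6b, at 135, 148 and 131, than Kat6a, at 93.1, 95 and 90.6. After OHT Kat6a was above Kat6b in the Y48E line in CPM as well. The shares of the untreated WT and both Y48E groups did not overlap one another.

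**Figure D4:**
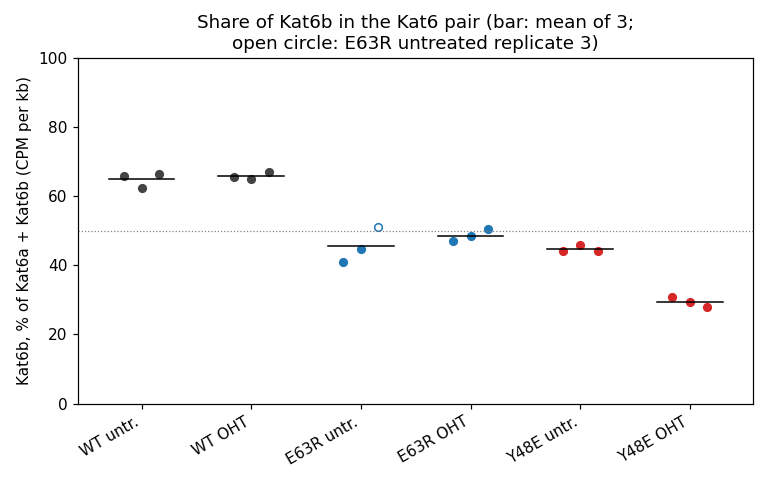
Share of Kat6b in the summed CPM per kilobase of Kat6a and Kat6b (y axis, percent) in each of the 18 libraries, with the mean of 3 as a bar, the dotted line at 50% and replicate 3 of the untreated E63R cells as an open circle. The WT libraries lie between 62.5% and 67.1%, the untreated Y48E libraries between 44.2% and 45.9% and the OHT-treated ones between 28% and 30.7%.

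Kat7, the catalytic subunit of the HBO1 complexes that acetylate histone H3 with BRPF scaffolds and histone H4 with JADE scaffolds, fell after OHT in the Y48E line. It was at 188, 194 and 180 CPM untreated and at 103, 123 and 113 after OHT, with no overlap. The change was -0.73 (SE 0.13, adjusted p = 8.73e-05 in edgeR's quasi-likelihood test), a 1.66-fold lower level, and it passed in all 6 repeats that left out 1 Y48E library. In the WT line Kat7 was at 178, 184 and 183 CPM untreated and at 173, 152 and 174 after OHT, a log2 difference of -0.12 (95% interval -0.39 to 0.14). The E63R line had 224, 204 and, in the library that stands apart, 139 CPM untreated, and 174, 168 and 158 after OHT. The 2 ordinary untreated libraries were above all 3 OHT-treated ones. Its log2 difference in that line was -0.18 (adjusted p = 0.332 in edgeR) from all libraries and -0.36 (adjusted p = 0.000404 in edgeR) without that library. The Y48E change exceeded the WT change by -0.61 (SE 0.18, adjusted p = 0.0179 in edgeR), and without that library the adjusted p was 4.52e-06 in edgeR.

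Kat2a, the main GCN5 subunit of SAGA and ATAC, fell after OHT in both mutant lines. In the WT line it was at 114, 117 and 109 CPM untreated and at 113, 121 and 111 after OHT, and these groups overlapped, with a log2 difference of 0.02 (95% interval -0.19 to 0.23). The Y48E line went from 110, 116 and 116 CPM to 83.8, 78.5 and 74.1, below every other library of the series. This change of -0.53 (SE 0.10, adjusted p = 0.000245 in edgeR) was 1.45-fold, and it passed in all 13 alternatives. The E63R line went from 158, 144 and 119 CPM to 112, 106 and 105. The highest levels of Kat2a were thus those of the untreated E63R cells, and after OHT the E63R libraries, at 105 to 112 CPM, overlapped those of the WT line at 111 to 121. The E63R change was -0.38 (SE 0.10, adjusted p = 0.00838 in edgeR). It did not pass when any 1 of the other 5 E63R libraries was left out, with adjusted p in edgeR between 0.0207 and 0.0572, whereas without the library that stands apart it was -0.49 (adjusted p = 7.25e-06 in edgeR). Kat2a was the only member whose change differed between lines in the fit of all 18 libraries, by -0.56 (SE 0.15, adjusted p = 0.00802 in edgeR) for Y48E minus WT, where 12.6% of all genes passed, 6.77% as lower. That call was lost in each of the 12 repeats that left out 1 WT or Y48E library, with adjusted p in edgeR from 0.011 to 0.0289, and was kept without replicate 3 of the untreated E63R cells (adjusted p = 4.6e-05 in edgeR). Between the changes of Y48E and E63R the difference was -0.15 (95% interval -0.45 to 0.15).

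Kat2b, the PCAF paralogue, was the less abundant member of this pair in all groups. In the WT line it was at 23.7, 29.5 and 30.9 CPM untreated and at 33.2, 33.7 and 48.1 after OHT. These groups did not overlap, and the difference of 0.45 (SE 0.16) had an edgeR adjusted p of 0.284. The untreated E63R cells had 47.3, 44.4 and 32.5 CPM and the OHT-treated ones 43.2, 44.6 and 46.9. The Y48E line had 43.7, 42.8 and 40 CPM untreated and 37.9, 32.9 and 36.3 after OHT, again without overlap, but the difference of -0.24 (95% interval -0.57 to 0.09) did not pass. Its share of the Kat2 pair per kilobase was lowest in the untreated WT cells, at 15.1% ± 1.98 (SD, n = 3), and highest in the OHT-treated Y48E cells, at 24.5% ± 1.42. Some Kat2b reads may belong to the pseudogene Kat2b-ps, which is 95.1% identical over 2479 bases and was itself counted at means of 1.49 CPM in the OHT-treated E63R and 2.08 CPM in the OHT-treated Y48E cells.

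Ep300 differed little between the groups. It was at 130, 122 and 130 CPM in the untreated and 125, 110 and 116 in the OHT-treated WT cells. The Y48E line had 102, 121 and 118 CPM untreated and 126, 119 and 113 after OHT. The untreated Y48E libraries were thus all below the untreated WT ones, a comparison in which 40.2% of all genes did not overlap. Apart from the E63R library at 36.5 CPM, all 17 libraries lay between 102 and 131 CPM. The log2 difference after OHT was -0.12 in the WT line (95% interval -0.63 to 0.38) and 0.07 in the Y48E line (-0.44 to 0.58). Without that library the Y48E interval was -0.11 to 0.24. Crebbp lay between 24.3 and 42.7 CPM in the same 17 libraries, with a difference of -0.16 (95% interval -0.56 to 0.23) in the Y48E line. In the OHT-treated E63R cells Crebbp was at 26.8, 25.2 and 24.3 CPM, below all WT libraries. Against the OHT-treated WT cells this was a log2 difference of -0.39 (adjusted p = 0.133 in edgeR). Of all genes 50.5% did not overlap in that comparison. Neither gene passed the test in any of the 10 comparisons, with or without the E63R library that stands apart. The CBP share of the pair per kilobase had means between 19.5% and 25.1% in the 6 groups. The highest mean was that of the untreated E63R cells, with 20.7%, 21.9% and, in the library that stands apart, 32.7%.

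Kat5, the catalytic subunit of the NuA4/TIP60 complex, was between 29.6 and 45.8 CPM in the 17 libraries. In the E63R line it went from 45.8, 40.5 and, in the library that stands apart, 52.7 CPM to 35.7, 36.1 and 34.1, without overlap. That difference of -0.39 (SE 0.14) had an edgeR adjusted p of 0.0406, and of 0.117 without the library. In the Y48E line the difference was 0.01 (95% interval -0.27 to 0.30). Of its exon bases 12.1% overlap Rnaseh2c on the other strand, and Rnaseh2c was at 40.7, 40.2 and, in that library, 85.3 CPM in the untreated E63R cells. The use of strand in counting is not given in the sources used here, and without it reads from the overlap cannot be told apart.

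Kat8, the MOF enzyme of the MSL and NSL complexes, was at 20.2 to 31.2 CPM in the 17 libraries. Its differences after OHT were 0.15, -0.24 and -0.17 in the WT, E63R and Y48E lines, and no comparison passed. Prss8, on the other strand, overlaps 4.22% of its exon bases and was at means of 9.82 CPM untreated and 17.5 CPM after OHT in the Y48E line. The part of Prss8 reads in the values of Kat8 was not tested.

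Hat1 differed between the lines more than with OHT. The WT line had 383, 351 and 337 CPM untreated and 340, 343 and 344 after OHT. The Y48E line had 406, 431 and 411 CPM untreated and 467, 451 and 468 after OHT. The E63R line had 426, 438 and, in the library that stands apart, 758 CPM untreated, and 436, 460 and 463 after OHT. All 12 libraries of the mutant lines were above all 6 WT libraries. From all 18 libraries the untreated E63R cells exceeded the untreated WT cells by 0.60 (SE 0.14, adjusted p = 0.00342 in edgeR), and without the library that stands apart by 0.28 (SE 0.06, adjusted p = 0.000429 in edgeR). After OHT the Y48E cells exceeded the WT cells by 0.43 (SE 0.14, adjusted p = 0.0184 in edgeR), and the adjusted p was 1.01e-08 in edgeR without that library. The difference after OHT within the Y48E line was 0.15 (95% interval -0.15 to 0.45).

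Several of these differences between lines were present before OHT, in cells not treated to delete endogenous Hdac1 and Hdac2. In the untreated Y48E cells 0 of 10 members passed against untreated WT cells in edgeR, where 12.2% of all genes did, with 3 at an unadjusted p under 0.05 and 1 called by DESeq2. Without the E63R library that stands apart 4 passed, Kat2b, Kat6a and Hat1 higher by 0.59, 0.56 and 0.22 and Kat6b lower by a log2 difference of -0.63, against 21.4% of all genes. In the untreated E63R cells 2 passed from all libraries, Kat6b at -0.80 and Hat1 at 0.60, against 16.9%. The Kat6b call was lost without replicate 1, 2 or 3 of the untreated WT cells and the Hat1 call without replicate 2 or 3 of them, with adjusted p in edgeR from 0.0114 to 0.0307. Without that library 5 passed, Kat2a, Kat2b, Kat6a and Hat1 higher by 0.42, 0.72, 0.84 and 0.28 and Kat6b at -0.47, against 20.5%. In the fit without that library the same 4 genes, Kat2b, Kat6a, Hat1 and Kat6b, passed in the same direction in both untreated mutant lines. From all 18 libraries no member passed in both. Both lines were compared with the same 3 WT libraries. The share of all genes that passed in the same direction in both was not counted. The line and the mutation cannot be told apart in this design, since each construct was carried by a line of its own. Hdac1 RNA, which may include that of the transgene, was also higher in the WT line than in both mutant lines.

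**Figure D5:**
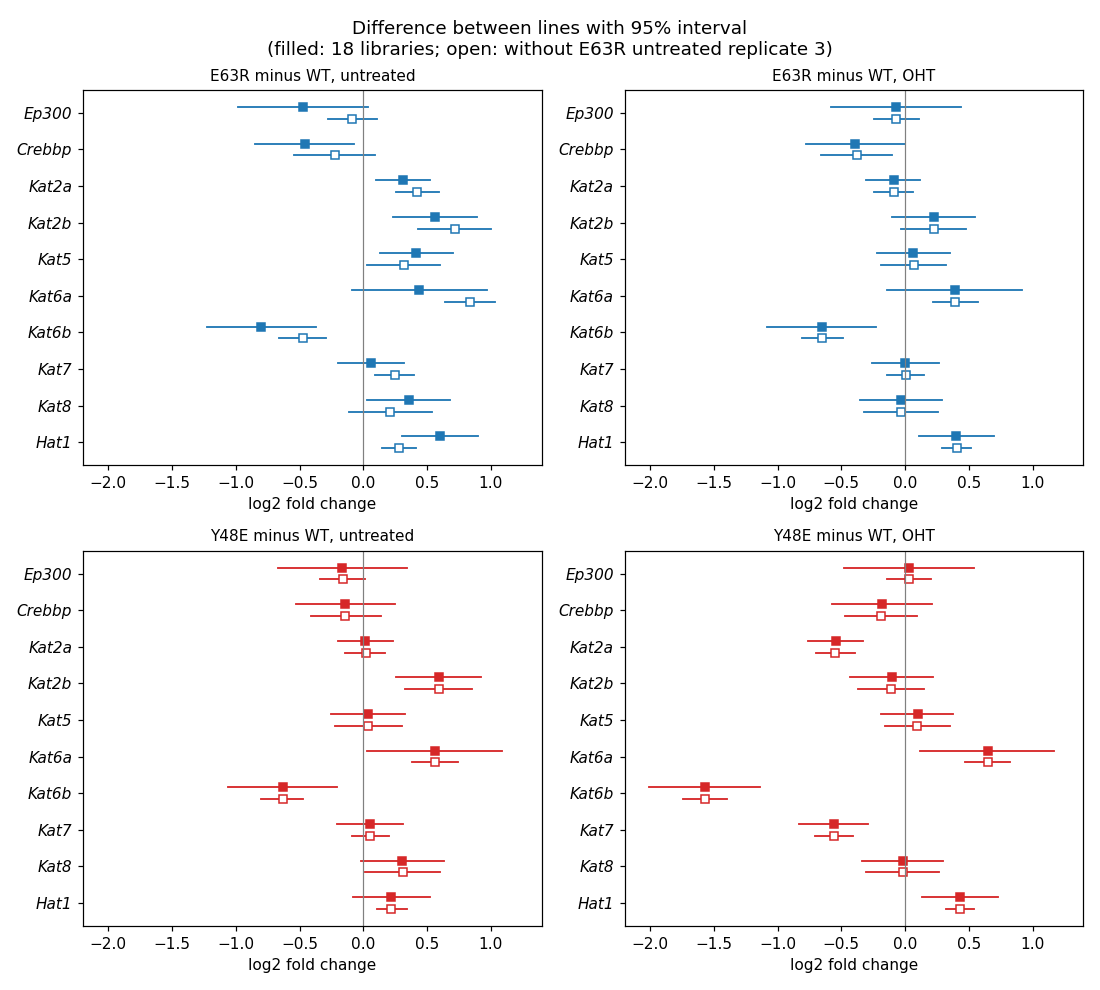
Log2 difference of the 10 acetyltransferase genes between each mutant line and the WT line (x axis) with its 95% interval, untreated (left) and after OHT (right), from all 18 libraries (filled) and without replicate 3 of the untreated E63R cells (open). Kat6b lies at -0.80, -0.65, -0.63 and -1.57 in the 4 comparisons, the lowest member in each.

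After OHT, 3 members passed between the Y48E and the WT line, Kat6b at -1.57 (SE 0.21, adjusted p = 2.6e-06 in edgeR), Kat2a at -0.54 (adjusted p = 0.000189) and Kat7 at -0.56 (adjusted p = 0.00119), all lower, against 31.8% of all genes called and 15.2% called lower. The Kat7 call was lost without replicate 1 of the OHT-treated Y48E cells (adjusted p = 0.0108 in edgeR). Kat6b, at a 2.97-fold lower level, was the only member beyond 2-fold, as 18.2% of all genes were. Without the E63R library that stands apart Kat6a at 0.65 and Hat1 at 0.43 were added, against 41.8%. Between the OHT-treated E63R and WT cells 0 members passed in edgeR, against 19.3% of all genes, with 2 at an unadjusted p under 0.05 and 0 in DESeq2. Without that library 3 passed, Kat6a at 0.39, Hat1 at 0.41 and Kat6b at -0.65, against 29.5%. For the difference of the OHT change, E63R minus WT, 0 members passed in edgeR (2.45% of all genes), with 1 at an unadjusted p under 0.05 and 0 in DESeq2, and without that library 1 passed, Kat2a at -0.51 (6.53%). For Y48E minus E63R 0 passed in edgeR (1.95% of all genes), with 3 at an unadjusted p under 0.05 and 0 in DESeq2. Without that library 2 passed, Kat6a at 0.53 and Kat6b at -0.77 (7.45%). For Y48E minus WT 4 passed without it, Kat2a, Kat2b, Kat6b and Kat7 at -0.56, -0.70, -0.94 and -0.61 (23.1%).

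The partners of the enzymes and the genes around them were described from 9 lists with 119 tested genes other than the members. After OHT 0 of 119 passed edgeR's test in the WT line, with 9 at an unadjusted p under 0.05 and 2 called by DESeq2. The E63R line had 3 higher and 10 lower, which is 10.9% of the partners against 14.3% of all genes. By direction 2.52% were higher and 8.4% lower, against 7.49% and 6.82% of all genes. In the Y48E line 9 were higher and 29 lower, which is 31.9% against 30.9% of all genes. There 7.56% were higher and 24.4% lower, against 16.2% and 14.7% of all genes. Without the E63R library that stands apart 1 was higher and 2 lower in the WT line (1.39% of all genes called). The E63R line then had 5 higher and 26 lower, which is 26.1% against 18.5%, and in the Y48E line 12 were higher and 44 lower, which is 47.1% against 41.1%. The share of partners called in the E63R line was thus below that of all genes with this library and above it without. The median log2 change in the Y48E line was -0.18 over the lists and 0.05 over all genes. Of the 42 calls of named partners in the next paragraphs, which come from all 18 libraries, 41 also passed without that library.

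Among 23 tested SAGA and ATAC partners 2 rose and 4 fell in the Y48E line, and 3 and 5 without the library that stands apart. Those that rose belong to the deubiquitinating module, Atxn7l3 at 0.79 (SE 0.11) from 70.7 ± 7.15 to 122 ± 6.91 CPM (SD, n = 3) and the ubiquitin protease Usp22 at 0.48. The acetylation adaptor Tada2a fell by 0.74 on the log2 scale, the core subunit Supt20 by 0.89 and the structural subunit Taf5l by 0.97, from 133 ± 12 to 67.9 ± 4.63 CPM. In the E63R line Atxn7l3 rose by 0.57, and Sgf29, a reader subunit, and Taf5l fell by 0.76 and 0.40. Among the genes named here, Kat2a, Tada2a, Supt20 and Taf5l were thus lower and Atxn7l3 and Usp22 higher in the Y48E line. In the list 17 of 23 partners did not pass there, and its median log2 change was 0.01. The modules as a whole were not tested.

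For the NuA4/TIP60 complex 0 of 16 partners rose and 5 fell in the Y48E line, and 2 rose and 6 fell without the library that stands apart, while the 95% interval of the change of Kat5 itself was -0.27 to 0.30 on the log2 scale. The ATPase Ruvbl2 fell by 1.28, from 270 ± 11.4 to 111 ± 2.64 CPM (SD, n = 3), the histone reader Ing3 by 0.93 and the H2A.Z-binding subunit Vps72 by 0.87. Ruvbl2 and Vps72 also fell in the E63R line, by 0.54 and 0.61, but Vps72 did not pass there without that library, at -0.47 (adjusted p = 0.0108 in edgeR). Ruvbl2 and Vps72 serve other complexes as well. Among the 9 BRPF, JADE and ING partners of Kat6a, Kat6b and Kat7, Brpf3 alone passed in the Y48E line, at -1.15 (SE 0.18) from 66.3 ± 4.73 to 29.8 ± 0.973 CPM. Without the E63R library that stands apart 3 of these 9 were lower.

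Of 10 MSL and NSL partners of Kat8 4 fell in the Y48E line, and 6 without the library that stands apart, among them the methyl-lysine reader Phf20 by 0.99, Kansl3 by 0.79 and the O-GlcNAc transferase Ogt by 0.59. Kansl3 was also lower in the E63R line, at -0.56 and, without that library, at -0.75. Of 12 p300 and CBP cofactors 4 rose and 0 fell in the Y48E line, with Cited1 at 2.37 (SE 0.48) from 2.67 ± 1.33 to 13.8 ± 3.27 CPM, Cited2 at 0.95 and the nuclear receptor coactivator Ncoa1 at 0.94. Cited1 and Cited2 also rose in the E63R line, by 2.18 and 0.69. Without the library that stands apart 4 of the 12 cofactors were higher and 2 lower in the Y48E line. The median log2 change of the 12 in the Y48E line was -0.22 with and without that library. Of the 9 genes of HAT1 and histone chaperones 4 fell in the Y48E line, and 6 without that library, among them the HAT1 and deacetylase complex subunit Rbbp4 by 0.60, the chromatin assembly subunit Chaf1b by 0.52 and the H1 and H3 chaperone Nasp by 0.45. Rbbp4 in the E63R line was at -0.54 and, without that library, at -0.33.

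Among 12 other acetyltransferases 1 rose and 2 fell in the Y48E line, and 1 and 3 without the library that stands apart. The cohesin acetyltransferase Esco2 fell by 1.12, from 265 ± 8.66 to 122 ± 8.13 CPM (SD, n = 3), while its paralogue Esco1 rose by 0.53, from 31.9 ± 2.73 to 45.9 ± 3.58 CPM. The RNA acetyltransferase Nat10 fell by 0.61. Esco2 and Nat10 fell in the E63R line by 0.62 and 0.44. In the supply of acetyl-CoA 1 of 11 genes rose and 5 fell in the Y48E line, and 1 and 7 without that library. ATP citrate lyase, Acly, a source of nuclear and cytosolic acetyl-CoA, fell by 0.81 from 437 ± 25 to 250 ± 12.2 CPM. Acat2 fell by 0.78 and the pyruvate dehydrogenase subunit Pdha1 by 0.56, and the mitochondrial thiolase Acaa2 rose by 0.94. Pdha1 fell by 0.54 in the E63R line. Of 19 readers of acetyl-lysine 1 rose and 4 fell in the Y48E line, and 1 and 6 without that library. Among them were Mllt3 at 0.61, Atad2 at -0.87, Atad2b at -0.70 and Zmynd8 at -1.47, from 208 ± 10.3 to 75.3 ± 4.6 CPM. Zmynd8 was also lower in the E63R line, at -0.76.

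Over the 18 libraries, the genes whose log2 CPM followed Kat6b most closely among 16683 candidates were Sorl1 and Rnf213, with Pearson's r of 0.96 each, and Lasp1 with 0.95. For Kat2a they were Spidr and Zfp740, with 0.95 each, and Caprin1 with 0.94. These are descriptions over libraries that share lines and treatments, and without the library that stands apart the coefficients of the 6 genes were 0.94 to 0.95.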

How the data were processed

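RNA was sequenced from 18 libraries of 3 rescue lines. The authors aligned the reads to mm10 and deposited raw counts of reads per gene symbol, and the submitters' processing notes name HISAT2 2.1.0, SAMtools 1.9 and HTSeq. Strand use is not given in the sources used here. The 5 entries that name no gene (59.4% to 61.2% of a library) were left out.

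Low counts were filtered with filterByExpr by group and libraries scaled by TMM factors (edgeR 4.0.16, R 4.3.3). All 18 libraries entered a single quasi-likelihood fit of group means. Each comparison had its p-values corrected after Benjamini and Hochberg over the 18791 tested genes, with an adjusted p under 0.01 as the threshold and a log2 change beyond 1 for a DEG. The p-values measure the spread between these libraries, which the study describes as biological replicates. Exon lengths and positions came from GENCODE M21, and near copies from exon sequence comparison. The procedure was tested on simulated data.

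The members and lists were chosen with earlier results of these data known. Named were all members, Hdac1, Hdac2, up to 3 increases and 3 decreases per list and line among genes that passed, with a mean of at least 1 CPM and no overlap between groups, and the 3 genes closest in pattern to the 2 members with the widest range of group means.

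Alternatives were relative log expression (RLE) factors, no filter, a replicate block, only the libraries compared, DESeq2 1.42.0, leaving out libraries in turn, and 0.05 in place of 0.01 as the adjusted p threshold. Length offsets and leaving out the aberrant library in comparisons that do not use it were added after seeing the data. Same-numbered libraries did not deviate together (r from -0.03 to 0.07), so the numbers were not used as pairs.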

Additional observations from a re-analysis of the deposited data

Results flagged for a closer look

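The change of Kat2a after OHT differed between the Y48E and the WT line by -0.56 on the log2 scale (SE 0.15, adjusted p = 0.00802 in edgeR's quasi-likelihood interaction test), from -0.53 in the Y48E line and 0.02 in the WT line. The 3 OHT-treated Y48E libraries were below the 3 untreated ones, whereas the WT groups overlapped. The call was lost when any 1 of the 12 libraries concerned was left out, and it passed without replicate 3 of the untreated E63R cells, which the comparison does not use. Single outlying libraries of these groups were not tested for separately.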

How the results depend on the processing

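With 3 libraries a group, no member passed from all 18 libraries with a log2 change smaller than 0.38, and calls moved with replicate 3 of the untreated E63R cells. Without it the change of Kat6a after OHT in the E63R line turned to -0.36, and over all repeats that left out 1 library it was -0.36 to 0.30. The number of members passing became 3 after OHT in the E63R line, 4 for the Y48E minus WT change, 1 for E63R minus WT, 2 for Y48E minus E63R, 4 and 5 in untreated Y48E and E63R against WT, and 5 and 3 after OHT. Partner genes passing became 3 in the WT, 31 in the E63R and 56 in the Y48E line, from 0, 13 and 38.

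Leaving out each library compared gave 0 to 3 members after OHT in the E63R line, 2 to 3 in the Y48E line and 0 in the WT line, 0 for Y48E minus WT (each of 12), 0 to 1 for E63R minus WT, 0 to 2 for Y48E minus E63R, 0 to 5 for untreated E63R, 0 for untreated Y48E, and 2 to 3 and 0 for OHT-treated Y48E and E63R against WT. The untreated E63R count was 1 without WT replicate 1 or 2, 0 without WT replicate 3 and 5 without E63R replicate 3. The Y48E minus E63R count was 1 without untreated E63R replicate 2.

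For the E63R change the count was 0 with no filter or only the libraries compared and 2 at a limit of 0.05. For Y48E minus WT it was 0 with RLE factors, 2 with no filter, 3 with length offsets, and 4 with only the libraries compared or at 0.05. For Y48E minus E63R it was 1 with no filter, length offsets or 0.05. For untreated Y48E it was 1 with RLE factors or DESeq2, 3 with no filter, 2 with length offsets or 0.05 and 4 with only the libraries compared. For untreated E63R it was 5 with no filter or 0.05, 0 with only the libraries compared and 4 with DESeq2. For OHT-treated Y48E it was 5 with no filter, length offsets, only the libraries compared or 0.05. For OHT-treated E63R it was 2 with no filter or 0.05, 1 with length offsets and 3 with only the libraries compared. DESeq2 called 2 partner genes in the WT line. The cause of these shifts was not tested. The replicate block kept the counts of members at 0, 1 and 3 after OHT in the WT, E63R and Y48E lines and changed no other count of members, and it gave 13 and 36 partner genes in the E63R and Y48E lines, so pairing by number altered no call of a member. Of the results on single members under all alternatives, 1368 kept direction and side of the threshold, 76 gained and 33 lost the call, 62 moved and 1 reversed.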
